A study of Mus musculus with 10 samples.

Results

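The comparison described here is the response of control-transfected NMuMG/E9 cells to TGFbeta, chosen by the siRNA and treatment time in the sample labels: 4 of the 10 libraries of the series. NMuMG is an epithelial line from normal mouse mammary gland, and E9 is a subclone of it (labelled subclone 9), so that all libraries come from 1 line. RNA was sequenced from cells carrying a control siRNA (siCtr, 20 nM) that received no TGFbeta (siCtr 0 d, replicates 1 and 3) and from siCtr cells that received recombinant human TGFbeta1 (2 ng/ml) for 2 d (siCtr TGFbeta, replicates 2 and 3). All cells were collected 3 d after transfection, and TGFbeta was added 1 d after it. The other 6 libraries, with an siRNA against the transcription factor Irf1 (siIrf1, 20 nM) at 0 d and after 2 d of TGFbeta, 3 each, entered the same fit and are used here for the spread and for 1 comparison at the end. The labels do not say that the replicates were separate cultures, so p-values measure the spread between these libraries, which may be technical.

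TGFbeta is a secreted cytokine that binds a pair of receptor serine/threonine kinases, which phosphorylate Smad proteins. Smad complexes then enter the nucleus and act on DNA together with other factors, among them AP-1. In mammary epithelial cells TGFbeta slows growth and drives epithelial-mesenchymal transition, in which cells lose junctions and polarity and take on migratory, matrix-producing traits. The genes below lie mostly outside that programme: carriers and channels, receptors, secreted factors, transcription factors and enzymes.

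To show the DNA at which some of the most changed genes start, 300 bases around the start site were taken from RefSeq (GRCm38.p6). They cover 250 bases before it and 50 after it. Some genes with larger changes are not shown. The promoters are those of 3 genes among the largest rises and 3 among the largest falls, all held in the reference. These are Angptl2 (chr2:33215711-33216010), which encodes a secreted angiopoietin-like protein, Dbh (chr2:27165257-27165556), which encodes dopamine beta-hydroxylase, and Selp (chr1:164115014-164115313), which encodes the adhesion receptor P-selectin, among the rises. Among the falls they are Cst9 (chr2:148834897-148835196), a cystatin, Aoc1 (chr6:48895005-48895304), a diamine oxidase, and Gm3776 (chr9:78256879-78257178), a gene of the glutathione S-transferase alpha family. All 6 are on the plus strand and are written 5′ to 3′. Capitals mark matches on either strand to 5 short motifs: CAGACA, which Smad proteins can bind, TGANTCA, the site of the AP-1 complex, CAGGTG, an E-box that the repressors of the Snai and Zeb families bind, CAAAGTCCA, a site of the nuclear receptor HNF4, and AGATAA, a site of the Gata family.
Angptl2: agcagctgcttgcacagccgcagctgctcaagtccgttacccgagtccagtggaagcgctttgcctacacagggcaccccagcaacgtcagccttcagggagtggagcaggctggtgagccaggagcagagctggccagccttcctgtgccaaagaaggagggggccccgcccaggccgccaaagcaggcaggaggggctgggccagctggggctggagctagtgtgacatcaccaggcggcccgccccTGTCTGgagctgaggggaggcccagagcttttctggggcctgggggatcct
Dbh: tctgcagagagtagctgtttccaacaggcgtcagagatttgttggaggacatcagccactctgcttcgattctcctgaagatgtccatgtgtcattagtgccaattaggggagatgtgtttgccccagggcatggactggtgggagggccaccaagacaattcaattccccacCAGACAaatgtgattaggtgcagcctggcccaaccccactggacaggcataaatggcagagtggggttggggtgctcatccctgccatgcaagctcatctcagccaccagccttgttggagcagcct
Selp: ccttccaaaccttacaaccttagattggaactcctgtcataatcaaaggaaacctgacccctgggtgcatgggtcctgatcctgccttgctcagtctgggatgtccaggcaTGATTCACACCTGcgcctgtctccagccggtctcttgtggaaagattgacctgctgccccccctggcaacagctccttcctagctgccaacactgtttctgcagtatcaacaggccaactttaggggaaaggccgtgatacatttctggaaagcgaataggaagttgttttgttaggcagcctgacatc
Cst9: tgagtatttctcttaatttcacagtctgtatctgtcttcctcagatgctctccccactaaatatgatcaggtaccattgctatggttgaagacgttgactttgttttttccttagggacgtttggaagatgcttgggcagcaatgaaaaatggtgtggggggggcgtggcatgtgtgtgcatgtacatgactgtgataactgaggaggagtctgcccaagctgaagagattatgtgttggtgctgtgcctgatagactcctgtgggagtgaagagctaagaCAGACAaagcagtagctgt
Aoc1: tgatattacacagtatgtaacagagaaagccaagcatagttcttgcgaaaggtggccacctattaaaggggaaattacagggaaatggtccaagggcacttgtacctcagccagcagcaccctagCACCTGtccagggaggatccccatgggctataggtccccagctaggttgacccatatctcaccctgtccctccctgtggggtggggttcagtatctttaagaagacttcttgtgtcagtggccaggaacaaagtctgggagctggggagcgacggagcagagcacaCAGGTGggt
Gm3776: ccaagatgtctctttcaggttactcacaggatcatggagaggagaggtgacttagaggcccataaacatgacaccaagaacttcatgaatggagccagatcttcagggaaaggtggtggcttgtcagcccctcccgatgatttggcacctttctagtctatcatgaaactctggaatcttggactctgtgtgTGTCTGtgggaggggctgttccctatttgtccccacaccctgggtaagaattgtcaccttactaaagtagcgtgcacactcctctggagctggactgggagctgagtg

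The Smad letters stood in Angptl2, Dbh, Cst9 and Gm3776, in genes of both directions. In Selp the AP-1 letters and the E-box letters were next to each other without overlap, and Aoc1 held 2 E-box matches. The Smad letters were held by 21.0% of all 27025 promoters of this length, the E-box letters by 20.0%, the Gata letters by 11.4%, the AP-1 letters by 7.93% and the HNF4 letters by 0.477%. Among the 295 promoters of genes at least 8-fold higher with TGFbeta, 14.9% held the AP-1 letters, against 5.52% of the 10338 promoters of tested genes. Among the 263 promoters of genes at least 8-fold lower, 12.5% held them, and 28.9% held the E-box letters, against 17.5% of tested genes. The E-box letters were in 21.0% of the 295. The Smad letters were in 25.4% of the 295 and 21.3% of the 263, against 1656 of the 10338 promoters of tested genes, and the Gata letters in 8.81% and 10.3%, against 6.5%. The HNF4 letters were in 3.04% of those 263 promoters, in 0.678% of the 295 and in 0.416% of tested genes. Each of the 5 letter sets was thus above its share of tested genes in both directions, for HNF4 among the 295 by 2 promoters only. Against all 27025 promoters the Gata shares were lower in both directions, and the Smad share of the 263 was about equal. These shares are descriptions of letters within 300 bases, with no test and no statement on binding.

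The 8 promoters behind the share of 3.04% are shown with 10 bases on each side of the HNF4 letters, in capitals. Of these, 5 belong to the Cyp2c group of cytochrome P450 genes on chromosome 19. Hnf4a itself fell (below), but a link between its level and that of these genes was not tested. The 8 promoters were chosen after their values were seen. Positions are chr19:39649149-39649177 (minus strand), chr19:39886826-39886854 (minus), chr19:39060880-39060908 (plus), chr19:39741160-39741188 (minus), chr11:77893839-77893867 (minus), chr19:39812841-39812869 (minus), chr3:96830069-96830097 (plus) and chr8:60506042-60506070 (plus), in the order of the lines.
Cyp2c67: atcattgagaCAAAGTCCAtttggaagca
Cyp2c69: atcattgagaCAAAGTCCAtttggaagag
Cyp2c65: gatgttggaaCAAAGTCCActgggaggag
Cyp2c68: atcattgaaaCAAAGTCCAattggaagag
Pipox: ctagtttagcTGGACTTTGcctccctcct
Cyp2c40: atcattgagaCAAAGTCCAtttggaagag
Pdzk1: aatctttgtcCAAAGTCCAgtgagttcca
Aadat: cctctgtggaTGGACTTTGtcccttctgc

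Of these 8 genes Cyp2c65 had the highest level and the 7 others stayed below 5 CPM in all 4 libraries. Cyp2c65 was at 7.62 and 24.5 CPM without TGFbeta and 0.465 and 0.833 CPM with it (log2 change -4.68 ± 0.65 SE, adjusted p = 4.54e-04). Cyp2c68 stood at 1.18 and 3.12 CPM without TGFbeta and 0.13 and 0.0333 CPM with it, and Aadat, an aminotransferase of tryptophan and lysine breakdown, at 1.85 and 4 CPM without TGFbeta and 0.335 and 0.4 CPM with it. Both treated libraries were below both untreated ones in all 3. The Cyp2c genes are close copies whose reads may be shared or lost in counting, so their values and their shared letters are not separate observations.

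The 4 libraries held 27547649 and 33527413 counts in siCtr 0 d and 56004347 and 31480679 in siCtr TGFbeta. Levels are in CPM (TMM-scaled by edgeR), in the order siCtr 0 d replicates 1 and 3, then siCtr TGFbeta replicates 2 and 3. Changes are log2 fold changes, TGFbeta minus none, with the standard error (SE) and the adjusted p of edgeR's quasi-likelihood test with Benjamini-Hochberg adjustment over 13135 genes. Of these genes, 4267 passed an adjusted p of 0.05 (32.5%), 2120 higher with TGFbeta (16.1%) and 2147 lower (16.3%), with a median log2 change of 0.02 over all genes tested. Changes of at least 8-fold passed in 414 genes upward and 346 downward. The untreated libraries differed more from each other than the treated ones (r = 0.978 and 0.993 of log CPM). They also differed in the level of GC-poor against GC-rich genes (-1.5 and -0.56 on the log2 scale, against -0.27 and -0.28 with TGFbeta). In the siIrf1 libraries this value was mostly positive (0.60, 0.06 and 0.79 at 0 d, 0.70, -0.38 and 0.88 with TGFbeta), so it differed between the siRNAs as well. Without siCtr 0 d replicate 3, 3402 genes were higher and 1714 lower (66.5% of calls upward), without siCtr 0 d replicate 1, 1379 and 1409, without siCtr TGFbeta replicate 2, 1327 and 970, and without siCtr TGFbeta replicate 3, 1639 and 1233.

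The largest rises included genes at or near 0 in untreated cells. Angptl2 stood at 0 counts in both untreated libraries and at 32.2 and 28.3 CPM with TGFbeta, at least 599.7-fold higher with the floor set at 3 counts over the group. Pdgfrb, which encodes a receptor for platelet-derived growth factor, went from 0 counts to 19.9 and 21.5 CPM, at least 398-fold. By the same bound Dbh was at least 126-fold higher, Selp at least 118-fold and Lrp4, a muscle synapse receptor for agrin, at least 108-fold. Ctsw, a cathepsin known from cytotoxic lymphocytes, reached the highest level of these genes, with 0.0393 and 0.121 CPM without TGFbeta and 212 and 225 CPM with it (log2 change 11.27 ± 0.40 SE, adjusted p = 8.14e-07). Tagln, an actin-binding protein of smooth muscle, had 1 count in each untreated library and 51.6 and 71.9 CPM with TGFbeta, a ratio of 1721 with a 95% counting interval of 476 to 14217. Its exons overlap Pcsk7 and a predicted gene, and the larger of these overlaps covers 62.4% of its exon bases. Whether counting used strand is not given in the sources used here. Floors and intervals cover counting error only.

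Among the largest falls, Sftpd, a collectin of airway and gland surfaces, fell from 15.4 and 15.3 CPM to 0.0744 and 0.2 CPM (log2 change -6.92 ± 0.46 SE, adjusted p = 4.82e-06). Cst9 was at 5.77 and 9.58 CPM without TGFbeta and 0.093 and 0 CPM with it, a change of -6.97 ± 0.58 that became -11.15 without siCtr TGFbeta replicate 2, which left 1 treated library at 0 counts. Aoc1 fell from 34.8 and 24.5 CPM to 0.372 and 0.233 CPM, 93.4-fold (log2 change -6.55 ± 0.33 SE, adjusted p = 2.20e-06). Gm3776 was at 16.9 and 13.2 CPM without TGFbeta and 0.205 and 0.0999 CPM with it, but its family has close copies that may share reads. Vnn3, a pantetheinase, was 89.6-fold lower (log2 change -6.49 ± 0.39 SE, adjusted p = 2.92e-06).

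The labelled cell type was checked against its markers. Of 7 epithelial markers 4 were tested, of which 1 rose and 2 fell. The simple epithelial keratin Krt18 rose, from 4314 and 3486 CPM to 7667 and 7432 CPM, and its partner Krt8, at 3162 and 2654 CPM without TGFbeta and 5293 and 4669 CPM with it, did not pass the test. Krt19, another simple epithelial keratin, fell from 2412 and 2464 CPM to 332 and 282 CPM. E-cadherin (Cdh1) fell from 694 and 586 CPM to 339 and 363 CPM, a call lost without siCtr TGFbeta replicate 2. The epithelial genes Epcam, Cldn3 and Cldn7 had 0 counts in all 4 libraries, and the table does not show whether the cells lack these RNAs or the counting missed them. Of 7 fibroblast and pericyte markers 3 were tested and 2, Pdgfra and Pdgfrb, rose, with a summed level of 0.0606 to 0.196 CPM without TGFbeta and 20.6 to 22.7 CPM with it, while Col1a2, Col3a1, Thy1 and Dcn were at 0 counts in all 4. Of 7 myoepithelial markers Acta2 and Krt17 rose and Krt5 fell (summed level 13.8 to 16.5 and 13.1 to 15.3 CPM). Of 6 endothelial markers Cdh5 rose and Esam fell (summed 0.758 to 1.14 and 5.26 to 6.14 CPM), with Kdr, Tie1 and Tek at 0 counts. Of 7 immune markers Cd68 rose and Lyz2 fell (summed 2.24 to 3.22 and 7.44 to 7.46 CPM), with Ptprc at 0 to 4 counts and Cd3e at 0. The fall of Lyz2 rests on few reads, 10 and 3 counts without TGFbeta and 1 in each treated library. Among 7 neural and muscle markers Tubb3 rose (summed 1.79 to 2.47 and 20.9 to 26.9 CPM), with Snap25 and Myod1 at 0. None of 5 adipocyte markers was tested. The part that a change in the mix of cells plays in the results below was not tested, and in bulk RNA fewer cells of a type and less RNA per cell cannot be told apart.

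**Figure D1:**
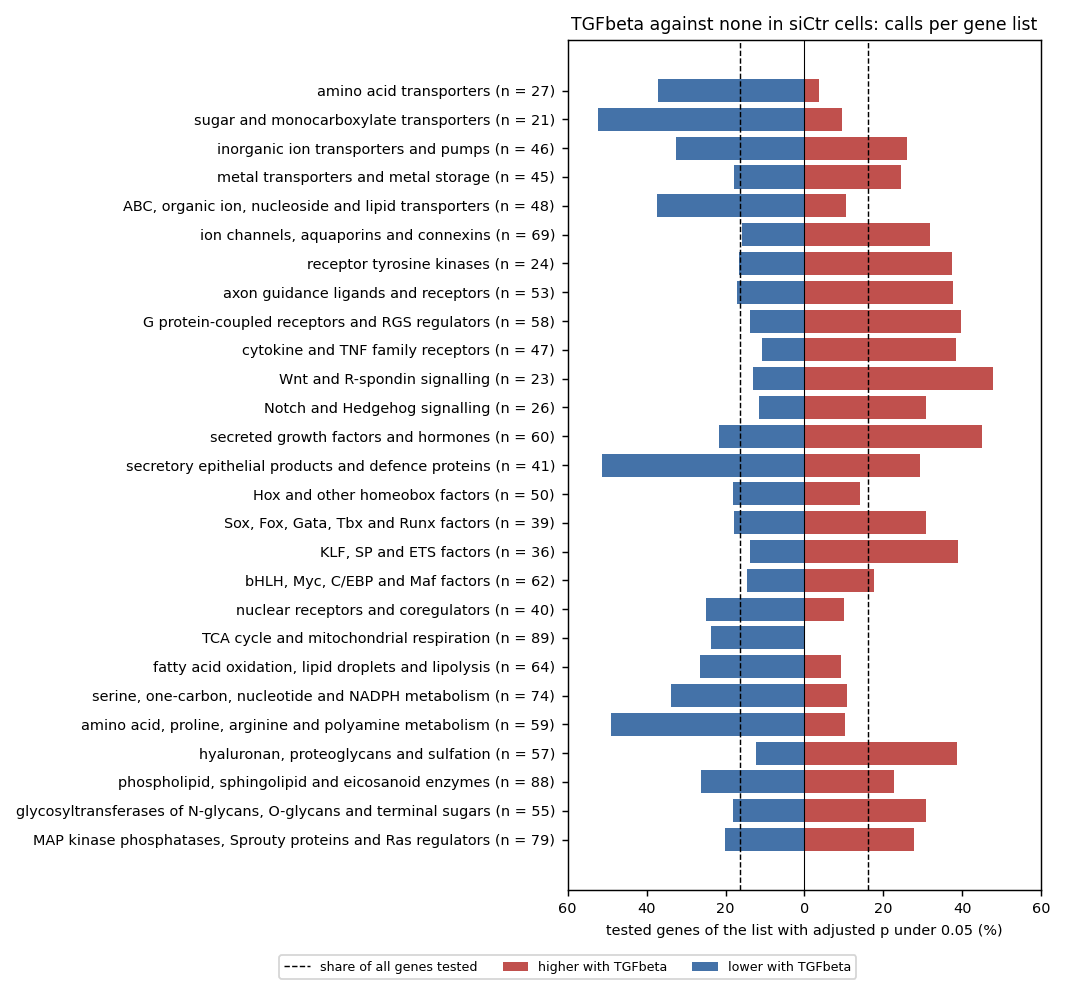
Share of the tested genes of each of 27 lists with an adjusted p under 0.05, to the right for genes higher with TGFbeta and to the left for genes lower with it (%), with the share over all genes tested as dashed lines (16.1% and 16.3%). Sugar and monocarboxylate carriers, secretory products and amino acid metabolism reach farthest to the left, and Wnt genes and secreted growth factors farthest to the right.

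The lists hold genes by function. Their calls are to be read beside the shares over all genes tested, 16.1% higher and 16.3% lower with TGFbeta (32.5% together). Genes named for a large rise or fall had to pass the test, with no overlap between the 2 untreated and 2 treated libraries. Their separation, as stated below, follows from that choice and is not a further result. A gene given with a log2 change alone lies outside the rule for named genes, was chosen after its values were seen, and was called under every alternative run. A range after a list's median covers the median under those alternatives. It is given where the median moved by over 1.5 times, or a change of sign is stated in its place. Each such median is over the list's genes tested under that setting, so with no filter genes of very few counts enter it. Of 27 amino acid carriers tested, 10 fell, 1 rose and 16 did not pass the test (median log2 change -0.24, -0.41 to -0.05 under the alternatives, against 0.02 over all genes). Without siCtr TGFbeta replicate 2 the count of falls was 5, without siCtr TGFbeta replicate 3 it was 6, and the rises numbered 2 without siCtr 0 d replicate 3 and 2 when siCtr TGFbeta replicate 2 was left out. Slc1a5, the main carrier of glutamine, stood at 233 and 192 CPM without TGFbeta and 56.4 and 57.8 CPM with it. The treated libraries were the lower pair (log2 change -1.90 ± 0.19 SE, adjusted p = 4.49e-05). Slc7a5, the light chain of the exchanger of large neutral amino acids, fell as well (-1.33). Slc6a18, a kidney-type carrier of neutral amino acids that the list does not hold, was among the 8 largest falls of all genes, from 45.6 and 38.8 CPM to 0.205 and 0.633 CPM (log2 change -6.77 ± 0.42 SE, adjusted p = 4.35e-06). Slc38a7, a lysosomal glutamine and asparagine carrier, was the 1 that rose, with 34 and 30.9 CPM without TGFbeta and 65.9 and 63.9 CPM with it (log2 change 1.00 ± 0.20 SE, adjusted p = 0.00323). The taurine carrier Slc6a6 had the highest level per length of the list, at 401 and 448 CPM per kilobase, and did not pass the test (log2 change 0.16 ± 0.16 SE, adjusted p = 0.474).

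Of 21 sugar and monocarboxylate carriers 11 fell and 2 rose (median -0.74, -0.77 to 0.0 under the alternatives). The set of genes differs between these alternatives, and leaving out 1 library gave medians of -0.75 to -0.60. The falls numbered 6 without siCtr 0 d replicate 1, 5 without siCtr TGFbeta replicate 2 and 6 without siCtr TGFbeta replicate 3. Slc2a2 (GLUT2), the low-affinity glucose carrier of liver and islets, was at 10.2 and 7.4 CPM without TGFbeta and 0.856 and 0.833 CPM with it. The treated libraries were all but equal and both below the untreated ones (log2 change -3.37 ± 0.32 SE, adjusted p = 3.25e-05). The lactate and pyruvate carrier Slc16a1 (MCT1) fell 2.88-fold, from 269.8 ± 25.8 to 93.7 ± 14 CPM (mean ± SD, n = 2; edgeR adjusted p = 0.00142). Slc2a1 (GLUT1), which had the highest level per length, fell from 289 and 276 CPM to 164 and 158 CPM (log2 change -0.81 ± 0.19 SE, adjusted p = 0.00821). That call was lost without siCtr 0 d replicate 1 (-0.73), siCtr TGFbeta replicate 2 (-0.75) or siCtr TGFbeta replicate 3 (-0.70).

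Pumps and exchangers of inorganic ions split both ways. Of 46 tested, 12 rose and 15 fell (median -0.02, a sign that turned under 7 of 8 other settings of scaling, filter or model). The falls numbered 6 without siCtr TGFbeta replicate 2 and 8 without siCtr TGFbeta replicate 3. Slc4a1 (band 3), the chloride and bicarbonate exchanger of red cells and of acid-secreting kidney cells, stood at 10.4 and 10.7 CPM without TGFbeta and at 0 counts in both treated libraries, at least 296-fold lower. The sulfate carrier Slc26a11 was at 9.03 and 10.6 CPM without TGFbeta and 0.391 and 0.366 CPM with it. Both groups were tight and far apart (log2 change -4.68 ± 0.34 SE, adjusted p = 6.80e-06). Fxyd5, a small regulatory subunit of the sodium pump that also loosens cell contacts, stood at 13.9 and 12.4 CPM without TGFbeta and 111 and 112 CPM with it. All treated values were above all untreated ones (log2 change 3.09 ± 0.21 SE, adjusted p = 4.90e-06).

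Genes of metal handling gave 11 rises and 8 falls among 45 (median -0.01, positive under 7 of 8 other settings of scaling, filter or model). Without siCtr 0 d replicate 1 the rises numbered 7, and without siCtr TGFbeta replicate 2 the falls numbered 4. Steap4, a reductase of iron and copper, rose from 2.08 and 2.88 CPM to 25 and 27.3 CPM (log2 change 3.39 ± 0.35 SE, adjusted p = 6.99e-05). Slc11a1 (Nramp1), a metal carrier of phagocyte vesicles, was at 1.92 and 1.03 CPM without TGFbeta and 7.52 and 7.93 CPM with it. Both treated libraries were above both untreated ones (log2 change 2.40 ± 0.34 SE, adjusted p = 4.70e-04). Atp7b, the copper pump mutated in Wilson disease, fell from 51 and 41.8 CPM to 3.96 and 4.9 CPM, 10.5-fold (log2 change -3.39 ± 0.24 SE, adjusted p = 6.36e-06). Cnnm1, of a family tied to magnesium transport, was 7.15-fold lower (log2 change -2.84 ± 0.30 SE, adjusted p = 6.24e-05). The ferritin light chain Ftl1 had the highest level per length (1322 and 1311 CPM per kilobase) and a change of -0.01 ± 0.37 that did not pass, while the heavy chain Fth1 fell (-1.67 ± 0.20). Ferritin genes have many processed copies in the genome, so their counts are uncertain.

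Carriers of organic ions, nucleosides and lipids, with the ABC pumps, gave 18 falls and 5 rises among 48 (median -0.59, -0.60 to -0.35 under the alternatives). The falls numbered 11 without siCtr TGFbeta replicate 2, and the rises 9 without siCtr 0 d replicate 3. Slc47a1 (MATE1), which exports organic cations from liver and kidney cells, was at 8.17 and 5.31 CPM without TGFbeta and 0.186 and 0.233 CPM with it. The untreated libraries were both above the treated ones (log2 change -5.01 ± 0.40 SE, adjusted p = 1.27e-05). Abcc2 (MRP2), the export pump of the bile canaliculus, fell from 86.4 and 92.1 CPM to 13.3 and 17.5 CPM (log2 change -2.54 ± 0.37 SE, adjusted p = 5.53e-04). Its relatives Abcc3 (-1.53) and Abcc4 (-1.40) also fell. Slco2a1, which takes up prostaglandins, had the highest level per length, 415 CPM per kilobase without TGFbeta and 169.8 with it (log2 change -1.29 ± 0.20 SE, adjusted p = 7.65e-04). The folate carrier Slc46a1 rose, from 7.58 and 7.18 CPM to 27.5 and 29.5 CPM (log2 change 1.95 ± 0.25 SE, adjusted p = 2.53e-04), and so did the fatty acid carrier Slc27a1 (log2 change 1.46 ± 0.32 SE, adjusted p = 0.00655).

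Channels and connexins showed 22 rises and 11 falls among 69 (median 0.13, 0.01 to 0.35 under the alternatives). Without siCtr 0 d replicate 1 the rises numbered 14, and without siCtr TGFbeta replicate 2 they numbered 13. Chrna1, the alpha subunit of the muscle acetylcholine receptor, had 1 count in each untreated library and 46.2 and 57.4 CPM with TGFbeta. The ratio was 1467, with a 95% counting interval of 406 to 12119. The AP-1 letters occur in its promoter, on the minus strand, at chr2:73580533-73580559, and likewise in that of Notch4 (below), at chr17:34564281-34564307 on the plus strand. Both are shown with 10 bases on each side, chosen after their values were seen.
Chrna1: gacaagcctcTGACTCAtgatctatgt
Notch4: ggacattgtgTGACTCAggaaacagct

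The proton-gated channel Asic1 was at 0.0785 and 0.182 CPM without TGFbeta and 15.4 and 16.8 CPM with it. It was barely counted in untreated cells and clearly present in both treated libraries (log2 change 6.85 ± 0.65 SE, adjusted p = 3.82e-05). Aqp1, a water channel of secretory and absorptive epithelium, was at 180.1 and 197 CPM without TGFbeta and 2.74 and 4.23 CPM with it. The untreated libraries were both high and the treated ones both near the bottom of their range (log2 change -5.77 ± 0.33 SE, adjusted p = 2.53e-06), a 54.6-fold difference. Clic5, a chloride channel-like protein bound to cortical actin in microvilli, fell from 21 and 25 CPM to 0.223 and 0.3 CPM (log2 change -6.48 ± 0.36 SE, adjusted p = 2.48e-06). The epithelial sodium channel subunit Scnn1a fell as well (-2.56). Clic1, the most abundant channel-type gene per length, did not pass (log2 change 0.38 ± 0.21 SE, adjusted p = 0.184), although its change of 0.88 did with the trend on length and GC content removed.

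**Figure D2:**
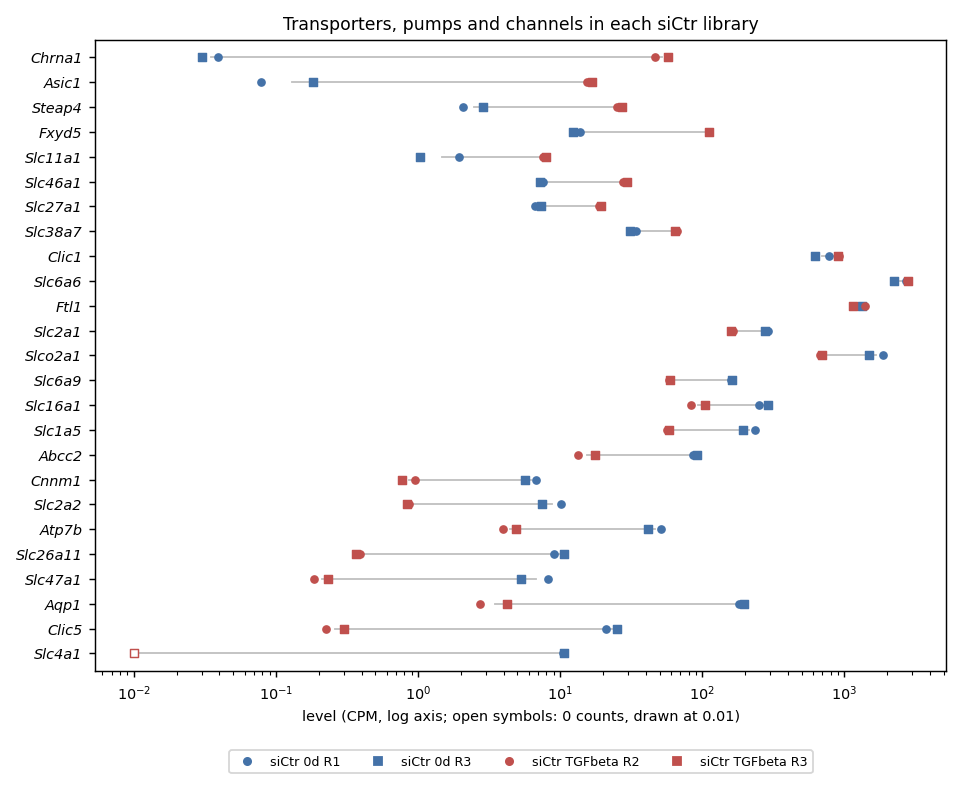
Level of the named carriers, pumps and channels in each siCtr library (CPM, log axis), blue without and red with TGFbeta, with grey lines joining the group means. Chrna1 and Asic1 are near 0 without TGFbeta, Slc4a1 is at 0 with it, and Slc6a6, Ftl1 and Clic1 lie close together in all 4 libraries (open symbols mark 0 counts).

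Receptor tyrosine kinases, their coreceptors and a few sorting and other receptors gave 9 rises and 4 falls among 24 (median 0.40, 0.26 to 0.85 under the alternatives). The falls numbered 2 without siCtr TGFbeta replicate 2 or replicate 3. Lrp4 has been given above. Nrp1, a coreceptor for VEGF and semaphorins, was at 17.9 and 53.6 CPM without TGFbeta and 248 and 235 CPM with it. The untreated libraries differed 3-fold, and both were below the treated ones (log2 change 2.75 ± 0.48 SE, adjusted p = 0.00171). Fgfr2, a receptor for fibroblast growth factors typical of epithelium, stood at 143 and 174 CPM without TGFbeta and 47.3 and 45.9 CPM with it. The treated values were below both untreated ones (log2 change -1.76 ± 0.17 SE, adjusted p = 4.14e-05). Sorl1, a sorting receptor of the endosome, fell from 16.7 and 16.1 CPM to 3.96 and 3.5 CPM (log2 change -2.13 ± 0.22 SE, adjusted p = 5.44e-05). The collagen receptor Ddr1 had the highest level per length (70.2 and 96.4 CPM per kilobase) and did not pass (log2 change 0.46 ± 0.29 SE, adjusted p = 0.245), although with the trend on gene length and GC content removed its change of 0.46 did.

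Guidance molecules, which steer axons and vessels, gave 20 rises and 9 falls among 53 (median 0.48, 0.12 to 0.74 under the alternatives), with 5 falls without siCtr TGFbeta replicate 2. Sema4f, a membrane-bound semaphorin, was at 0.118 and 0.0606 CPM without TGFbeta and 24.2 and 22.6 CPM with it (log2 change 8.04 ± 0.67 SE, adjusted p = 1.80e-05). Plxnd1, a semaphorin receptor of blood vessels, stood at 35 and 39 CPM without TGFbeta and 289.8 and 267 CPM with it. Treated libraries were all above untreated ones (log2 change 2.91 ± 0.26 SE, adjusted p = 2.41e-05). The secreted repellent Slit3 went the other way, from 29.9 and 32.4 CPM to 2.53 and 3.23 CPM (log2 change -3.44 ± 0.28 SE, adjusted p = 1.30e-05), as did the membrane semaphorin Sema6a (log2 change -2.08 ± 0.30 SE, adjusted p = 4.91e-04).

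G protein-coupled receptors and the RGS proteins that shorten their signals gave 23 rises and 8 falls among 58 (median 0.59). Without siCtr 0 d replicate 1 there were 15 rises, and without siCtr TGFbeta replicate 2 there were 5 falls. Adgra1, an adhesion-type receptor, was at 0.825 and 0.515 CPM without TGFbeta and 71.6 and 67.3 CPM with it. It was below 1 CPM in both untreated libraries and above 60 in both treated ones (log2 change 6.71 ± 0.34 SE, adjusted p = 2.20e-06). Rgs3 rose from 0.471 and 0.697 CPM to 5.55 and 5.03 CPM (log2 change 3.16 ± 0.35 SE, adjusted p = 8.75e-05). Adora1, the A1 receptor for adenosine, stood at 154 and 143 CPM without TGFbeta and 4.37 and 3.73 CPM with it. Its untreated libraries were both high and its treated ones both low (log2 change -5.19 ± 0.29 SE, adjusted p = 2.48e-06), with 20.1% of its exons overlapping Mybph. Ffar4, a receptor for long-chain fatty acids, was 9.42-fold lower (log2 change -3.24 ± 0.33 SE, adjusted p = 5.11e-05). The adhesion receptor Adgrg1, highest per length at 196 and 213 CPM per kilobase, did not pass (log2 change 0.12 ± 0.19 SE, adjusted p = 0.648).

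Cytokine and TNF family receptors gave 18 rises and 5 falls among 47 (median 0.46, 0.27 to 0.82 under the alternatives). Leaving out siCtr 0 d replicate 1 gave 3 falls, leaving out siCtr TGFbeta replicate 2 gave 3, and a block for replicate gave 8. Ghr, the growth hormone receptor, stood at 3.77 and 4 CPM without TGFbeta and 35.1 and 36.6 CPM with it. The replicates were close and the groups apart (log2 change 3.20 ± 0.24 SE, adjusted p = 8.44e-06). Tnfrsf12a (Fn14), the receptor for TWEAK, was the most abundant per length and rose 1.85-fold, from 399.6 to 738 CPM per kilobase (log2 change 0.89 ± 0.21 SE, adjusted p = 0.00905). Il22ra1, the epithelial receptor for IL-22, fell from 183 and 128 CPM to 44.9 and 44.5 CPM (log2 change -1.80 ± 0.20 SE, adjusted p = 9.85e-05). Ifngr2, a subunit of the interferon-gamma receptor, was at 422 and 270.3 CPM without TGFbeta and 135 and 144 CPM with it, lower in both treated libraries (log2 change -1.31 ± 0.20 SE, adjusted p = 8.04e-04).

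Wnt proteins are lipid-modified ligands that act through Frizzled receptors. Of 23 tested genes of the pathway 11 rose and 3 fell (median 0.61, 0.03 to 1.16 under the alternatives), and by edgeR's test 0 fell without siCtr TGFbeta replicate 3, where 3 had an unadjusted p under 0.05. Wnt7a was at 0.707 and 0.333 CPM without TGFbeta and 97.9 and 101 CPM with it. It was under 1 CPM in both untreated libraries and far above it in both treated ones, 195-fold higher (edgeR adjusted p = 2.92e-06). Wnt9a rose from 0.471 and 0.333 CPM to 56.3 and 45.6 CPM (log2 change 6.99 ± 0.49 SE, adjusted p = 6.62e-06). Wnt7b, the most abundant of the list per length in both groups, was at 306 and 320.4 CPM without TGFbeta and 793 and 797 CPM with it (log2 change 1.34 ± 0.20 SE, adjusted p = 5.27e-04). Wls, which carries Wnt proteins to the surface (1.29), Porcn, which adds their lipid (1.75), and Axin2, a known target of the pathway (2.74), rose as well.

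Notch receptors are cleaved after binding a ligand on a neighbouring cell, and Hedgehog ligands act through Patched and Gli proteins. Among 26 tested genes of both pathways 8 rose and 3 fell (median 0.18, 0.02 to 0.35 under the alternatives). The receptors Notch4 and Notch1 moved in opposite directions. Notch4 was at 0.432 and 0.515 CPM without TGFbeta and 29.2 and 23 CPM with it, and Notch1 at 16.3 and 20.6 CPM without TGFbeta and 2.18 and 1.2 CPM with it. Notch4 was higher in both treated libraries (log2 change 5.77 ± 0.32 SE, adjusted p = 2.48e-06), and Notch1 was lower in both (log2 change -3.43 ± 0.46 SE, adjusted p = 3.50e-04). The ligand Jag1, most abundant per length, rose from 120.04 and 186 CPM to 528 and 517 CPM (log2 change 1.77 ± 0.29 SE, adjusted p = 0.00124). Hey1, a repressor that Notch induces, fell from 7.54 and 5.43 CPM to 1.36 and 2.3 CPM (log2 change -1.84 ± 0.32 SE, adjusted p = 0.00165). Maml2, a Notch coactivator, rose 5.86-fold, with untreated libraries of 1.49 and 3.76 CPM.

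Secreted growth factors and hormones gave 27 rises and 13 falls among 60 (median 0.76, 0.61 to 1.31 under the alternatives). The falls numbered 5 without siCtr TGFbeta replicate 2 and 7 without siCtr TGFbeta replicate 3. Besides Angptl2, Nppb, the precursor of B-type natriuretic peptide, was at 0.118 and 0.182 CPM without TGFbeta and 9.23 and 10.1 CPM with it. It was near 0 in both untreated libraries (log2 change 5.95 ± 0.38 SE, adjusted p = 4.25e-06). Igfbp7, which binds insulin-like growth factors and had the highest level per length, rose from 425 and 388 CPM to 976 and 1002 CPM (log2 change 1.28 ± 0.17 SE, adjusted p = 2.81e-04). The neurotrophin Bdnf (2.92), the vessel growth factor Vegfa (1.18), and the activin inhibitors Fstl3 (3.33) and Fst (1.95) rose too. Fgfbp1, which releases fibroblast growth factors from matrix, fell from 58 and 77.5 CPM to 2.34 and 2.86 CPM (log2 change -4.71 ± 0.25 SE, adjusted p = 2.48e-06). Il33, a cytokine kept in the nucleus of barrier cells, was at 310.3 and 982 CPM without TGFbeta and 38.9 and 48.6 CPM with it. The untreated libraries differed 3-fold and were both far above the treated ones (log2 change -3.89 ± 0.53 SE, adjusted p = 3.84e-04).

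Products of secretory epithelium and defence proteins had the highest share of calls, with 21 falls and 12 rises among 41 (median -0.99, -1.08 to -0.25 under the alternatives). The lists were chosen with earlier results of these data known, so nothing is read from this rank. Clu, the secreted chaperone clusterin, was at 485 and 428 CPM without TGFbeta and 5155 and 4994 CPM with it. All treated values were above all untreated ones (log2 change 3.47 ± 0.20 SE, adjusted p = 2.48e-06), and per length it rose from 252 to 2802 CPM per kilobase, the highest of the list. Prss22, a serine protease of airway epithelium, rose from 0.0785 and 0.0606 CPM to 9.94 and 9.29 CPM (log2 change 7.07 ± 0.45 SE, adjusted p = 4.35e-06). With Sftpd and Cst9 (above), haptoglobin (Hp, -5.68), the iron-chelator carrier Lcn2 (-3.49) and the retinal dehydrogenase Aldh1a1 (-5.38) fell.

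**Figure D3:**
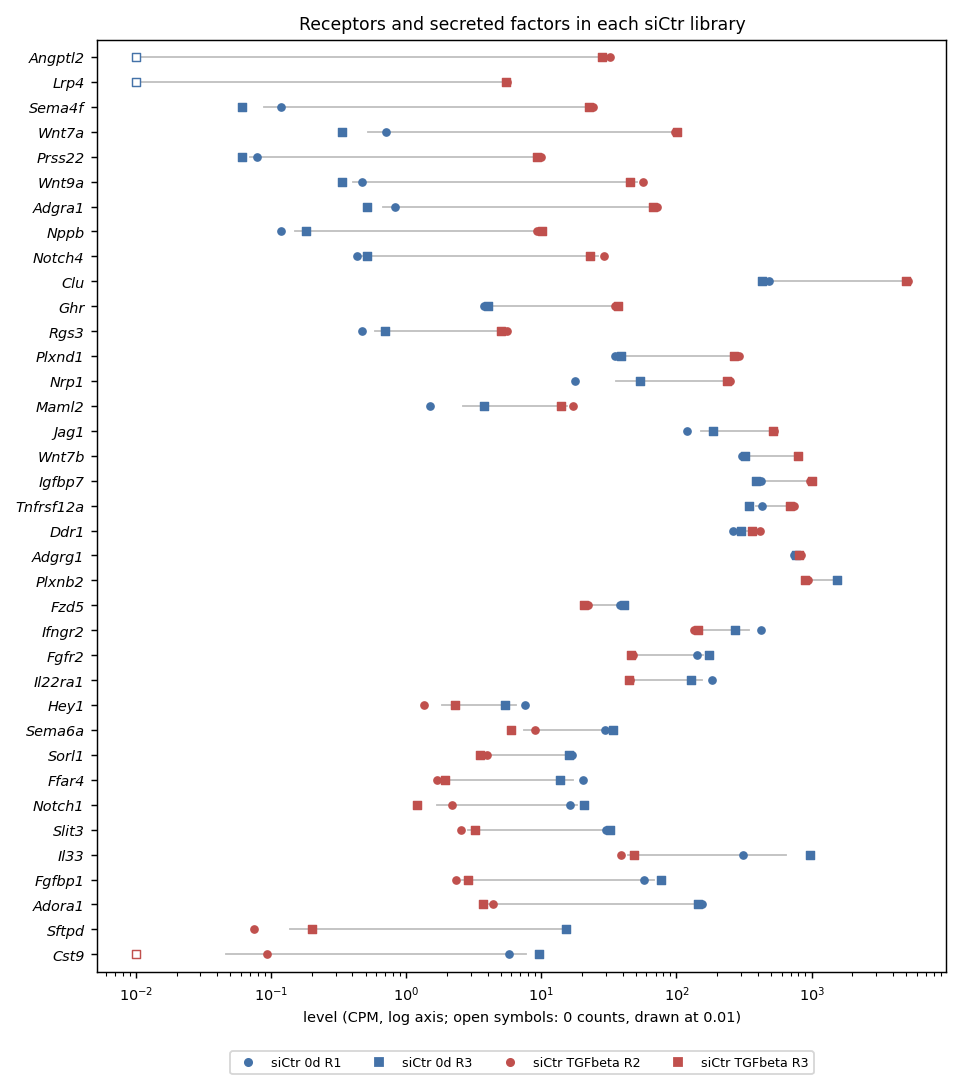
Level of the named receptors, ligands and secreted products in each siCtr library (CPM, log axis), blue without and red with TGFbeta, with grey lines joining the group means. Angptl2 and Lrp4 are at 0 counts without TGFbeta, Clu is the highest with it, and Adora1, Fgfbp1 and Il33 lie far lower with it (open symbols mark 0 counts).

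Hnf4a, a nuclear receptor that drives liver and gut genes, was at 370.4 and 278 CPM without TGFbeta and 103 and 105 CPM with it. Treated values were below untreated ones (log2 change -1.64 ± 0.23 SE, adjusted p = 3.97e-04), and it was the most abundant of the nuclear receptor list per length. Of 40 nuclear receptors and coregulators 10 fell and 4 rose (median 0.05, negative with a replicate block). Together these were 35.0%, near the 32.5% of all genes tested. The falls numbered 6 without siCtr TGFbeta replicate 2 or replicate 3, and the rises numbered 10 without siCtr 0 d replicate 3, 2 when siCtr 0 d replicate 1 was left out and 2 when siCtr TGFbeta replicate 2 was. Nr3c2, the mineralocorticoid receptor, fell 5.08-fold (log2 change -2.34 ± 0.29 SE, adjusted p = 1.94e-04). The corepressor Nrip1 rose from 1.69 and 4.58 CPM to 26.1 and 17.4 CPM (log2 change 2.78 ± 0.48 SE, adjusted p = 0.00174), and the vitamin D receptor Vdr rose 3.42-fold (log2 change 1.77 ± 0.29 SE, adjusted p = 0.0011).

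Homeobox genes, with Pax and related factors, gave 7 rises and 9 falls among 50 (median 0.13, 0.05 to 0.35 under the alternatives). Together these were 32.0%, near the 32.5% of all genes tested. The rises and falls numbered 4 and 5 without siCtr TGFbeta replicate 2. Pax8, a factor of thyroid, kidney and Müllerian epithelium, was at 63.8 and 56.7 CPM without TGFbeta and 6.01 and 5.8 CPM with it. The groups were far apart and the replicates close (log2 change -3.35 ± 0.29 SE, adjusted p = 1.99e-05). Tshz2 fell 8.52-fold (log2 change -3.09 ± 0.28 SE, adjusted p = 2.51e-05), but its exons overlap other genes, the largest overlap covering 65.2% of exon bases. Tgif1, a corepressor that binds Smad proteins, rose from 131 and 119 CPM to 301 and 351 CPM (log2 change 1.38 ± 0.16 SE, adjusted p = 1.43e-04) and was the most abundant per length.

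Among Sox, Fox, Gata, Tbx and Runx factors 12 of 39 rose and 7 fell (median 0.34, 0.14 to 0.64 under the alternatives). Leaving out siCtr 0 d replicate 1 gave 7 rises, as did leaving out siCtr TGFbeta replicate 2, and the falls numbered 4 without siCtr TGFbeta replicate 3. Gata5, a factor of endoderm and heart, stood at 15.7 and 8.79 CPM without TGFbeta and 0.261 and 0.3 CPM with it. It was under 1 CPM in both treated libraries (log2 change -5.45 ± 0.40 SE, adjusted p = 7.15e-06). Foxa2, a pioneer factor of endoderm, fell from 76.5 and 66.5 CPM to 22.2 and 19.7 CPM (log2 change -1.77 ± 0.23 SE, adjusted p = 2.36e-04). Sox4 was at 31.7 and 67.2 CPM without TGFbeta and 284 and 205 CPM with it, higher in both treated libraries (log2 change 2.30 ± 0.40 SE, adjusted p = 0.00176), with 54.6% of its exons shared with a predicted gene. Zfpm1 (FOG1), a cofactor of Gata proteins, rose 5.29-fold (log2 change 2.40 ± 0.47 SE, adjusted p = 0.00341).

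KLF, SP and ETS factors gave 14 rises and 5 falls among 36 (median 0.48, 0.26 to 0.81 under the alternatives). Rises numbered 9 without siCtr 0 d replicate 1 and 6 without siCtr TGFbeta replicate 2. The falls numbered 3 without siCtr 0 d replicate 1, 3 without siCtr TGFbeta replicate 2 and 2 without siCtr TGFbeta replicate 3. Elk3, an ETS repressor, was at 52.7 and 54.6 CPM without TGFbeta and 225 and 217 CPM with it, with close replicates and no overlap (log2 change 2.04 ± 0.15 SE, adjusted p = 7.78e-06). Klf9 rose 3.98-fold (log2 change 1.99 ± 0.34 SE, adjusted p = 0.00143), and Klf10, an early TGFbeta-induced factor in many cells, was higher as well (1.93). Spi1 (PU.1), a factor of blood cells, was at 6.09 and 6.4 CPM without TGFbeta and 0.186 and 0.266 CPM with it. Both treated libraries were far below the untreated ones (log2 change -4.81 ± 0.44 SE, adjusted p = 2.69e-05), while Ptprc, the pan-leukocyte marker, had 0 to 4 counts in all 4. The epithelial factor Grhl1 fell 3.69-fold (log2 change -1.89 ± 0.26 SE, adjusted p = 3.86e-04).

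Among bHLH, Myc, C/EBP and Maf factors with their coregulators 11 of 62 rose and 9 fell (median 0.20, 0.13 to 0.43 under the alternatives). These shares, 17.7% and 14.5%, were near those over all genes tested (16.1% and 16.3%). The rises numbered 5 and 7 without siCtr TGFbeta replicate 2 and replicate 3, 17 without siIrf1 TGFbeta replicate 2, and the falls 4 without either of the siCtr TGFbeta libraries alone. DESeq2 called 19 rises. Lmcd1, a LIM-domain coregulator that restrains Gata6, was at 14.9 and 16 CPM without TGFbeta and 244 and 245 CPM with it. Its replicates were nearly equal in each group (log2 change 3.98 ± 0.29 SE, adjusted p = 6.99e-06). The aryl hydrocarbon receptor Ahr rose from 8.52 and 19.8 CPM to 77.1 and 53.3 CPM (log2 change 2.20 ± 0.45 SE, adjusted p = 0.0047). Cebpa, which drives liver and fat cell genes, fell from 7.42 and 5.31 CPM to 0.298 and 0.3 CPM (log2 change -4.40 ± 0.37 SE, adjusted p = 1.69e-05). Tfec, of the MiT family of lysosome and pigment cell factors, was 10.3-fold lower (log2 change -3.37 ± 0.44 SE, adjusted p = 2.73e-04).

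**Figure D4:**
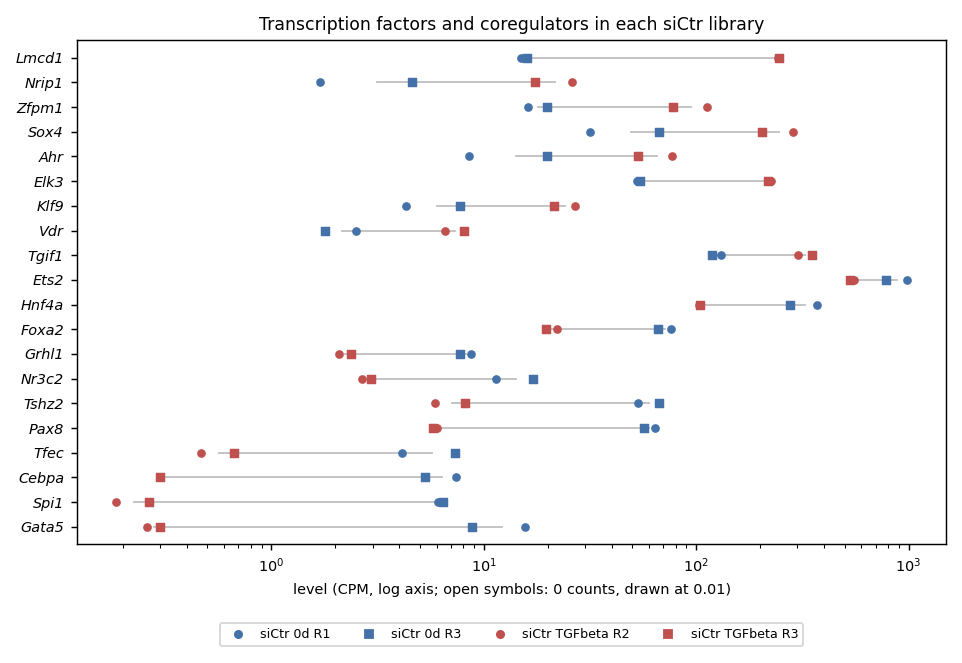
Level of the named transcription factors and coregulators in each siCtr library (CPM, log axis), blue without and red with TGFbeta, with grey lines joining the group means. Gata5, Spi1, Cebpa and Tfec lie below 1 CPM with TGFbeta, Hnf4a falls by less, and Lmcd1 has the largest rise shown.

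Of 89 tested genes of the TCA cycle and respiration 21 fell and 0 rose by edgeR's test (median -0.39, -0.41 to -0.05 under the alternatives). These 23.6% were above the share of falls over all genes tested (16.3%) and below the share of all calls (32.5%). For rises, 3 had an unadjusted p under 0.05, DESeq2 called 3, and 6 passed with the trend on length and GC content removed. The falls numbered 7 without siCtr 0 d replicate 1, 6 without siCtr TGFbeta replicate 2, 10 without siCtr TGFbeta replicate 3 and 12 in a fit of the 4 siCtr libraries alone, and 10 genes rose without siCtr 0 d replicate 3. Pcx, the pyruvate carboxylase that refills the cycle, was at 87.3 and 91.8 CPM without TGFbeta and 17.2 and 18.7 CPM with it. The treated values were lower, and the groups did not overlap, which the choice of named genes required (log2 change -2.32 ± 0.25 SE, adjusted p = 8.31e-05). Pdk1, a kinase that blocks pyruvate dehydrogenase, fell from 46.3 and 55.2 CPM to 12.6 and 13 CPM (log2 change -1.99 ± 0.20 SE, adjusted p = 5.37e-05). The malic enzymes Me1 (-1.87) and Me2 (-1.24) fell too. Atp5b, a catalytic subunit of ATP synthase with the highest level per length (953 and 719.7 CPM per kilobase), did not pass (log2 change -0.41 ± 0.18 SE, adjusted p = 0.106), although its change of -0.52 without siCtr 0 d replicate 3 did.

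Genes of fatty acid oxidation, lipid droplets and lipolysis gave 17 falls and 6 rises among 64 (median -0.34, -0.34 to -0.13 under the alternatives). Together these were 35.9%, near the 32.5% of all genes tested. The falls numbered 11 without siCtr 0 d replicate 1, 5 without siCtr TGFbeta replicate 2 and 9 without siCtr TGFbeta replicate 3, and the rises 3 without each of these. Plin2, the coat protein of lipid droplets and the most abundant of the list per length, was at 191 and 189.8 CPM without TGFbeta and 1185 and 1263 CPM with it. The untreated values were nearly equal and the treated ones more than 6-fold higher (log2 change 2.68 ± 0.15 SE, adjusted p = 2.48e-06). Lpin3, a phosphatidate phosphatase, rose from 22.9 and 20.7 CPM to 60 and 65.4 CPM (log2 change 1.52 ± 0.23 SE, adjusted p = 6.34e-04). The mitochondrial thiolase Acat1 fell from 134 and 112 CPM to 44.9 and 49.3 CPM (log2 change -1.39 ± 0.17 SE, adjusted p = 1.68e-04), as did Agpat2, an acyltransferase of triglyceride synthesis (log2 change -1.32 ± 0.20 SE, adjusted p = 6.01e-04).

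In serine, one-carbon, nucleotide and NADPH metabolism 25 of 74 fell and 8 rose (median -0.39), with 15 falls without siCtr 0 d replicate 1, 9 without siCtr TGFbeta replicate 2 and 14 without siCtr TGFbeta replicate 3. Entpd5, a nucleotide diphosphatase of the endoplasmic reticulum, was at 2322 and 1585 CPM without TGFbeta and 106 and 118 CPM with it. The treated libraries were both far below the untreated ones (log2 change -4.12 ± 0.23 SE, adjusted p = 2.48e-06), 17.4-fold. Psat1, an aminotransferase of serine synthesis and the most abundant of the list per length, fell from 1762 and 1239 CPM to 333 and 406 CPM (log2 change -2.02 ± 0.21 SE, adjusted p = 5.62e-05). G6pdx, the first enzyme of the pentose phosphate path, fell as well (-1.72). Nt5e (CD73), which makes adenosine outside the cell, was at 0.314 and 1.3 CPM without TGFbeta and 23.5 and 24.7 CPM with it. It rose (log2 change 4.85 ± 0.57 SE, adjusted p = 1.57e-04) while the adenosine receptor Adora1 fell (above). The folate enzyme Aldh1l1 rose from 1.1 and 1.39 CPM to 20.4 and 20.7 CPM (log2 change 4.03 ± 0.29 SE, adjusted p = 6.91e-06). Its exons overlap other genes, the largest overlap covering 11% of exon bases.

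Amino acid, proline, arginine and polyamine metabolism gave 29 falls and 6 rises among 59 (median -0.62, -0.65 to -0.31 under the alternatives). The falls numbered 18 without siCtr 0 d replicate 1, 13 without siCtr TGFbeta replicate 2 and 17 without siCtr TGFbeta replicate 3. Both steps that break proline down to glutamate fell. Prodh, the first, was at 15.6 and 17.6 CPM without TGFbeta and 2.2 and 1.77 CPM with it, and Aldh4a1, the second, at 234 and 213 CPM without TGFbeta and 35.6 and 33 CPM with it. Treated libraries were below untreated ones in both genes (Prodh -3.06 ± 0.30, Aldh4a1 -2.71 ± 0.25 on the log2 scale, edgeR adjusted p = 3.68e-05 and 2.74e-05), and 32.5% of the Aldh4a1 exons overlap a predicted gene. Sat1, the enzyme that starts polyamine breakdown, rose from 154 and 143 CPM to 441 and 506 CPM (log2 change 1.67 ± 0.18 SE, adjusted p = 8.53e-05). Glul, which makes glutamine, fell (-1.47). The aminotransferase Got1 had the highest level per length and did not pass (log2 change -0.29 ± 0.20 SE, adjusted p = 0.29).

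Proteoglycans, hyaluronan enzymes and sulfotransferases gave 22 rises and 7 falls among 57 (median 0.61). The falls numbered 4 without siCtr 0 d replicate 1, 3 without siCtr 0 d replicate 3 and 2 without siCtr TGFbeta replicate 2 or replicate 3. Sdc3, a heparan sulfate syndecan known from nerve and muscle, was at 1.81 and 1.97 CPM without TGFbeta and 163 and 144 CPM with it. It was under 2 CPM in both untreated libraries and above 140 in both treated ones (log2 change 6.34 ± 0.28 SE, adjusted p = 1.66e-06). Chst11, which sulfates chondroitin, rose from 1.14 and 0.97 CPM to 10.3 and 10.7 CPM (log2 change 3.31 ± 0.25 SE, adjusted p = 8.44e-06). The chondroitin polymerase Chsy1 (2.61) and the heparan polymerase Ext1 (2.04) rose as well. Sdc1, the syndecan typical of epithelium, was the most abundant per length and did not pass (log2 change 0.32 ± 0.24 SE, adjusted p = 0.327), although its change of 0.60 did with the trend on length and GC content removed.

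Enzymes of phospholipids, sphingolipids and eicosanoids split evenly, with 20 rises and 23 falls among 88 (median -0.18, positive with no filter on low counts or without siCtr 0 d replicate 3), and 14 falls without siCtr TGFbeta replicate 2. Pcyt1b, of phosphatidylcholine synthesis, was at 0.353 and 0.576 CPM without TGFbeta and 28.7 and 30.6 CPM with it (log2 change 5.96 ± 0.31 SE, adjusted p = 2.20e-06). Ptgs2 (COX-2), which starts prostaglandin synthesis, stood at 5.65 and 14.6 CPM without TGFbeta and 169 and 175 CPM with it. The untreated libraries differed and were both far below the treated ones (log2 change 4.08 ± 0.60 SE, adjusted p = 6.26e-04). Pla2g4a, which frees its substrate arachidonate, rose as well (2.85). Sgpp2, a sphingosine 1-phosphate phosphatase, fell from 71.6 and 64.3 CPM to 5.01 and 7.66 CPM (log2 change -3.43 ± 0.32 SE, adjusted p = 2.84e-05), whereas the kinase that makes its substrate, Sphk1, rose (mean 22.9 CPM without TGFbeta and 65 with it). Cyp2s1, an extrahepatic cytochrome P450, fell from 234 and 206 CPM to 21.9 and 20.4 CPM (log2 change -3.38 ± 0.24 SE, adjusted p = 6.16e-06).

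Glycosyltransferases gave 17 rises and 10 falls among 55 (median 0.21, 0.21 to 0.35 under the alternatives). There were 11 rises when siCtr 0 d replicate 1 was left out and 11 without siCtr TGFbeta replicate 2, and without siCtr TGFbeta replicate 2 or replicate 3 there were 6 falls. Fut2, the fucosyltransferase that makes H antigen in secretions, was at 18.1 and 15.2 CPM without TGFbeta and 0.354 and 0.266 CPM with it. Both treated libraries were under 1 CPM (log2 change -5.70 ± 0.46 SE, adjusted p = 1.36e-05). Mgat3, which adds the bisecting branch of N-glycans, fell from 527 and 411 CPM to 68.9 and 78.8 CPM (log2 change -2.67 ± 0.21 SE, adjusted p = 1.15e-05). Mgat5, which adds a branch that the bisecting sugar blocks, rose (0.97). St6galnac4, a sialyltransferase of short O-glycans, rose 7.38-fold (log2 change 2.88 ± 0.30 SE, adjusted p = 5.50e-05).

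**Figure D5:**
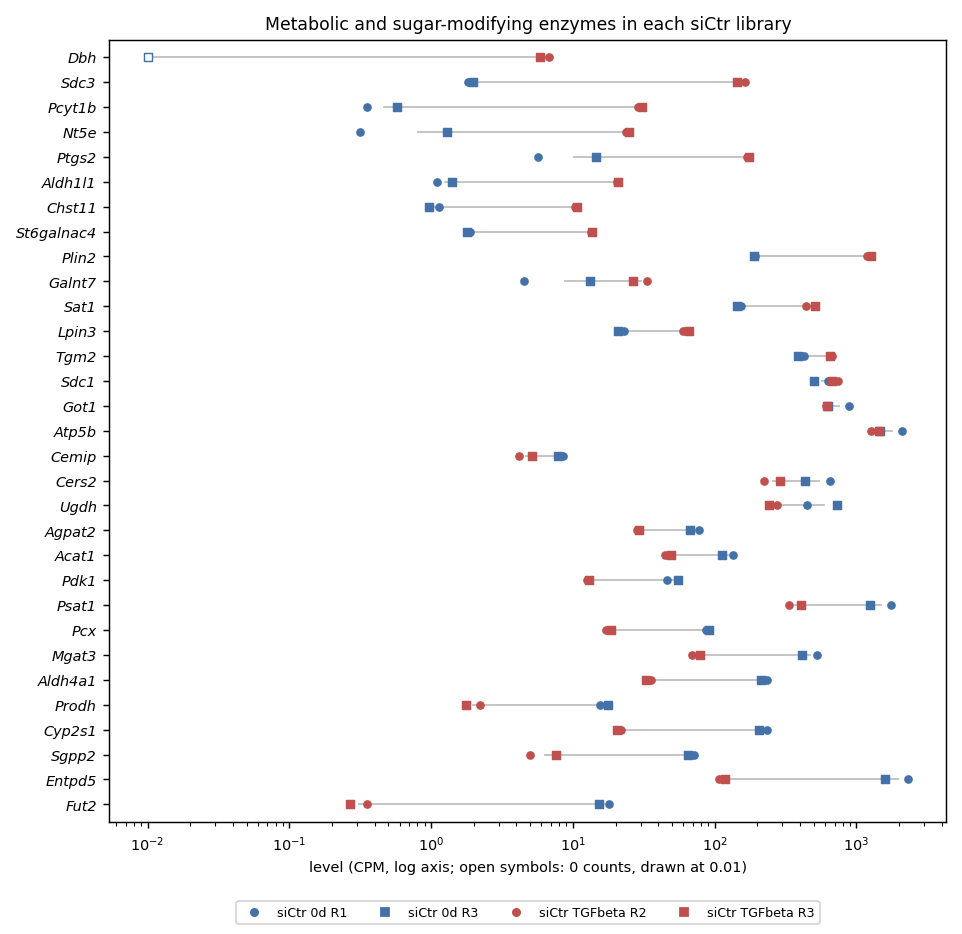
Level of the named enzymes of central, amino acid and lipid metabolism, proteoglycans and glycans in each siCtr library (CPM, log axis), blue without and red with TGFbeta, with grey lines joining the group means. Plin2 and Sdc3 lie higher with TGFbeta, Entpd5, Psat1 and Mgat3 lower, and Atp5b, Got1 and Sdc1, which did not pass the test, lie close together (open symbols mark 0 counts).

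Feedback and relay genes of the Ras and MAP kinase path gave 22 rises and 16 falls among 79 (median 0.11, negative with the replicate block and the trend on length and GC content removed together), and 8 falls without siCtr TGFbeta replicate 2. Rasgrp3, an exchange factor that activates Ras and Rap, rose from 3.3 and 7.73 CPM to 57.1 and 48.2 CPM (log2 change 3.25 ± 0.46 SE, adjusted p = 4.79e-04). The MAP kinase phosphatase Dusp2 was at 3.02 and 2.12 CPM without TGFbeta and 20.7 and 22 CPM with it. It rose (log2 change 3.06 ± 0.28 SE, adjusted p = 2.62e-05), as did Dusp5 (2.30) and Dusp4 (1.36), whereas Dusp6 fell (-1.77). Rapgef3 (EPAC1), a cAMP-driven exchange factor for Rap, fell from 22.7 and 29 CPM to 3.74 and 2.86 CPM (log2 change -2.96 ± 0.40 SE, adjusted p = 3.58e-04). Rras, the most abundant per length, rose 2.09-fold, from 46.7 to 97.7 CPM per kilobase (log2 change 1.06 ± 0.21 SE, adjusted p = 0.00373), and Rassf3 fell 4.34-fold (log2 change -2.12 ± 0.19 SE, adjusted p = 2.22e-05).

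Irf1 itself stood at 148 and 129 CPM in siCtr 0 d and at 106 and 112 CPM in siCtr TGFbeta, against 56.4, 64.1 and 57.7 CPM in siIrf1 0 d and 36.5, 46.2 and 41 CPM in siIrf1 TGFbeta. The TGFbeta effect was also set against that with siIrf1, as the difference of the effects in the same fit (siIrf1 minus siCtr). Over all genes 541 differences passed (4.12%), and 43 of the 131 named genes passed. The named genes were chosen by their change in siCtr cells, which is one side of that difference, so nothing is read from their share. Hnf4a fell in siCtr cells and rose in siIrf1 cells (0.68 ± 0.18), a difference of 2.32 ± 0.29 (edgeR adjusted p = 0.00242). Pdk1 changed by -0.02 ± 0.16 in siIrf1 cells (difference 1.97 ± 0.26, edgeR adjusted p = 0.00295) and Cyp2s1 by -0.41 ± 0.18 (difference 2.97 ± 0.29, edgeR adjusted p = 0.00102). For Adgra1, Fxyd5, Ghr and Dusp2 the differences were small beside the effects (-0.22 ± 0.45, 0.01 ± 0.25, -0.01 ± 0.27 and 0.01 ± 0.34) and did not pass. The differences of Hnf4a, Pdk1 and Cyp2s1 passed under every alternative run.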

How the data were processed

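Libraries were made from total RNA with a stranded TruSeq kit and sequenced on an Illumina HiSeq, per the labels' protocols. STAR and the GRCm38 (mm10) build are named in the submitters' processing notes. The aligner's version, the counting tool and its use of strand were not given in the sources used here. The authors deposited whole-number read counts for 24454 Entrez gene identifiers and a gene length. Symbols and coordinates came from RefSeq (GRCm38.p6) for 24374 identifiers and from GENCODE M21 for 7; the 73 others held 0.211 to 1.5% of a library's counts.

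Libraries were grouped by siRNA and treatment as labelled. Library totals were 27547649 to 67301646 counts, and no replicate pair agreed within sampling noise (chi-square divided by its degrees of freedom was 24.8 to 318). All 10 libraries were fitted in R 4.3.3 with edgeR 4.0.16 (TMM, filterByExpr, robust quasi-likelihood F test) with group as the model term, and 13135 genes passed the filter; residual degrees of freedom were 6 and the common biological coefficient of variation 0.225. SE was taken as |log2 change| over the root of the F value. CPM per kilobase divides CPM by the deposited gene length. Alternatives were RLE size factors, no or a stricter filter (2 CPM in 2 libraries), DESeq2 1.42.0, the 4 siCtr libraries alone, the replicate number as a block, removal of a trend on gene length and GC content (known for 95.0% of tested genes), both together, and leaving out each library.

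Named genes are, per list, the 2 largest rises and 2 largest falls (adjusted p under 0.05, at least 5 CPM in the higher group, no overlap of the 2 against 2 libraries) and the member with the highest level per length, and over all genes the 8 largest of each direction; some that the rule gives are not described. The rule gave 136 genes, of which 5 are not reported here, nor is 1 of the 28 lists. The gene lists and the comparison were chosen with earlier results of these data known. Lists are described by counts and medians, with no set test.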

Additional observations from a re-analysis of the deposited data

Results flagged for a closer look

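For 43 named genes the TGFbeta effect differed between siIrf1 and siCtr cells by the test of the difference itself (edgeR, adjusted p under 0.05). Values are differences of log2 changes, siIrf1 minus siCtr. The call held under every alternative run for 17 of them and was lost in at least 1 for 26. Calls were lost in 10 alternatives for Slc2a2, Slc4a1 and Pax8, in 9 for Aqp1, Foxa2 and Wnt7b, in 8 for Asic1 and Pcyt1b, in 7 for Prodh and in 6 for Ffar4, Jag1 and Mgat3. The 17 held throughout are Cnnm1, Clic5, Slc6a18, Sorl1, Slit3, Il22ra1, Gata5, Hnf4a, Pdk1, Cyp2s1, Aoc1, Chrna1, Lmcd1, Plin2, Sdc3, Chst11 and Tagln. The named genes were chosen by their change in siCtr cells, which is 1 side of the difference, so nothing is read from its sign. Genes that fell in siCtr cells and fell less, did not pass or rose in siIrf1 cells had positive differences. Among carriers and channels these were 1.67 for Slc2a2, 4.54 for Slc4a1, 2.11 for Atp7b, 2.48 for Cnnm1, 4.08 for Clic5, 1.61 for Aqp1 and 3.65 for Slc6a18. Among receptors and ligands they were 2.11 for Sorl1, 1.16 for Fgfr2, 3.16 for Slit3, 2.14 for Adora1, 1.90 for Ffar4, 2.29 for Il22ra1 and 2.10 for Hey1. Transcription factors gave 1.55 for Pax8, 4.43 for Gata5, 1.23 for Foxa2, 2.90 for Cebpa and 2.32 for Hnf4a. Enzymes gave 2.03 for Pcx, 1.97 for Pdk1, 1.52 for Acat1, 1.58 for Entpd5, 1.74 for Prodh, 2.39 for Sgpp2, 2.97 for Cyp2s1, 1.26 for Mgat3 and 3.77 for Aoc1.

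Genes that rose in siCtr cells had negative differences. These were -5.33 for Chrna1, -3.83 for Asic1, -2.75 for Wnt9a, -1.05 for Wnt7b, -1.81 for Jag1, -2.72 for Nppb and -1.35 for Clu. They were -2.53 for Lmcd1, -1.36 for Plin2, -1.71 for Lpin3, -2.25 for Sdc3, -2.46 for Chst11, -1.58 for Pcyt1b, -1.49 for Rhob and -5.62 for Tagln. Fitted differences of Slc4a1, Chrna1 and Tagln rest on groups with 0 to 1 counts per library and depend on the prior count.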

How the results depend on the processing

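With 2 libraries a side, each library carried much of the result: leaving out 1 library at a time gave 1327 to 3402 genes higher with TGFbeta and 970 to 2528 lower. Differences between siIrf1 and siCtr effects numbered 76 to 396 positive and 46 to 1194 negative in the same way, from 368 and 173. They numbered 729 and 442 with DESeq2, 592 and 546 with the trend on length and GC content removed, and 345 negative with that and the replicate block. The other counts stayed within 1.5 times. The median change over all genes moved from 0.02 to 0.10 with no filter, 0.11 with a stricter one and 0.12 with the trend removed. It was 0.16 without siCtr 0 d replicate 3, the largest shift, and 0.10 without siCtr TGFbeta replicate 2. With no filter 57.0% of calls were upward.

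Whether replicate numbers pair the libraries was not settled: each number goes with 1 code in the sample titles, which the labels do not explain. The 2 groups compared share only replicate 3, whose deviations correlated at -0.30, while 8 of 12 same-numbered pairs, all 3 between the siIrf1 groups among them, exceeded 0.1. With the replicate block 2068 genes were higher and 2279 lower. Of 136 named genes 127 to 136 kept their side of the threshold in each alternative, and no named change reversed.

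List counts that moved by over 1.5 times without leaving out a library are given here. Genes that a setting's filter removed, as the stricter filter does, were counted as not called there and were not tested. With the stricter filter, falls of ion carriers went from 15 to 9 and of proteoglycan genes from 7 to 3, rises of metal genes from 11 to 7 and of sugar carriers from 2 to 0 by edgeR's test (1 with an unadjusted p under 0.05), and falls of cytokine receptors from 5 to 3. With the trend removed, falls of metal genes went from 8 to 15, of guidance genes from 9 to 15 and of bHLH-list genes from 9 to 14, and rises of that list from 11 to 17 and of nuclear receptors from 4 to 7 (7 with DESeq2, 2 with the replicate block). With block and trend together, falls of secreted factors went from 13 to 8 and of TCA and respiration genes from 21 to 12. Rises of amino acid carriers went from 1 to 2 or 3 under 7 settings, and rises of fatty acid genes from 6 to 3 in the 4 siCtr libraries alone.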
